A study of Homo sapiens with 6 samples.

Results

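Chromatin accessibility was examined at the genes of CTCF, cohesin and condensin. The 10 genes were CTCF, the cohesin subunits RAD21, SMC3 and STAG1, the cohesin loader NIPBL and release factor WAPL, and the condensin subunits SMC2, SMC4, NCAPD2 and NCAPG. A promoter region was any accessible region that overlapped 2 kb on either side of the start site of a protein-coding transcript of one of these genes. A distal region was any other region whose midpoint had such a start site as its nearest protein-coding start site, within 100 kb. By this rule the genes held 47 of the 108542 regions measured, 13 of them promoter regions and 34 distal regions.

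The measurements were ATAC-seq, in which the Tn5 transposase cuts open chromatin and the cut fragments are sequenced. The cells were EndoC-βH3, a human pancreatic beta-like cell line with the labelled genotype WT, immortalized with hTERT and the SV40 large T antigen and carrying a CreER recombinase. The 3 senescent libraries came from cells treated with 4-hydroxytamoxifen for 3 weeks, which activates the recombinase and removes the immortalizing genes, and the 3 non-senescent libraries came from control cells of the same line. Each library was made from 100000 cells. Both groups therefore share one cell line and carry the same recombinase, and the treatment and the senescent state cannot be told apart. No source used here says whether the libraries of a group came from separate cultures, so the p-values measure the spread between these libraries.

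CTCF is a zinc finger protein that binds DNA at insulators and at the borders of chromatin loops. Cohesin is a ring that encircles DNA and extrudes loops until it meets CTCF, and it also holds sister chromatids together until they separate in mitosis. NIPBL loads cohesin onto chromatin and WAPL releases it. Condensin is a related ring complex that compacts mitotic chromosomes. SMC2 and SMC4 form the arms of both condensin complexes, while NCAPD2 and NCAPG belong to condensin I. Many genes that act in mitosis carry in their promoters the CHR, an element bound by complexes that repress cell cycle genes in resting cells, and genes of DNA replication often carry an E2F site.

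The promoter letters of 9 of the 10 genes were read from RefSeq, in windows from 250 bases before to 50 bases after the start site, and RAD21 had no entry. The CHR letters TTTGAA or TTCGAA, read on both strands, were found in 6 of these 9 promoters, those of CTCF, SMC3, SMC2, SMC4, NCAPD2 and NCAPG. Of 35116 RefSeq promoters of the same length, 16.4% held them. All 4 condensin genes were among the 6. Letters of an E2F site, TTTCCCGC, TTTCGCGC, TTTGCCGC or TTTGGCGC, were in the promoters of STAG1 and NIPBL and in 3.31% of all promoters. The STAG1 promoter also held the NRF1 and CTCF consensus letters, as did 1.48% and 1.27% of all promoters. Of the 4 stretches printed here, SMC3 shows the CHR letters where the main promoter region fell most. NCAPG shows them where a condensin promoter did not pass the test, and CTCF at the CTCF gene itself. The STAG1 promoter held no CHR letters, and is printed because it had the most kinds of match. The stretches are from RefSeq on GRCh38.p14, and leave out the annotated exons. In SMC3, NCAPG and CTCF the capitals are CHR letters, and in STAG1 they are, in order, the E2F, NRF1 and CTCF letters, while its other matches are left in lower case. The stretches were chosen after the matches were seen.
SMC3, chr10:110567445-110567683, + strand: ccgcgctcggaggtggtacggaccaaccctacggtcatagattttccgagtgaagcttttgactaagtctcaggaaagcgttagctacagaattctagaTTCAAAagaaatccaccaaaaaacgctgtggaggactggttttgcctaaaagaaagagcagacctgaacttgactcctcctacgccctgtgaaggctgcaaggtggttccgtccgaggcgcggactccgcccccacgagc
NCAPG, chr4:17810759-17810978, + strand: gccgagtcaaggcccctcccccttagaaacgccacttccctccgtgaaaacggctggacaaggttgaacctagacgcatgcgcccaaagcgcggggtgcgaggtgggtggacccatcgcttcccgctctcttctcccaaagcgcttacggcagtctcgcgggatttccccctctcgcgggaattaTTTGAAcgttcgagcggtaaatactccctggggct
CTCF, chr16:67562310-67562466, + strand: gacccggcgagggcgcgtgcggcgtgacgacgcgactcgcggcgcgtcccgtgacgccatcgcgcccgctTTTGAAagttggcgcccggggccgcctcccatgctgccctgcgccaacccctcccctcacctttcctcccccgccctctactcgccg
STAG1, chr3:136752404-136752628, - strand: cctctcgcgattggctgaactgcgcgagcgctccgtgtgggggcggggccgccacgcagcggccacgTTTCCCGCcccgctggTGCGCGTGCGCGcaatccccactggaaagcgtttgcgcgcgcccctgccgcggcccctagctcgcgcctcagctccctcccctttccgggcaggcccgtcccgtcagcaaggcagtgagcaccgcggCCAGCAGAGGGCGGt

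The deposited table gives 1 value per region for both groups together and no value per library. The level of a region is therefore its mean signal, the normalised count averaged over all 6 libraries, and the change is the log2 fold change of the authors' model with its standard error (SE, 3 against 3 libraries). A positive value was read as more accessible in senescent cells. The table does not name the numerator, and every direction given here rests on that reading, which follows how the study describes its changes and the fall at the promoter of the proliferation gene MKI67 (log2 fold change -0.53, SE 0.10, adjusted p = 4.6e-07 in the deposited model). A region was called higher or lower at an adjusted p under 0.05 and a fold change over 1.5, which is 0.58 on the log2 scale. Regions are given in hg38.

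Of the 10 main promoters, 7 were less accessible in senescent cells by less than 1.5-fold, and CTCF, WAPL and NCAPG did not pass the test. For each gene the promoter region of highest mean signal was used. In the authors' deposited table, 9 of the 10 log2 fold changes were negative and their median was -0.19, against -0.13 over all 20094 promoter regions. At an adjusted p under 0.05 with no limit on the fold change, 7 promoters were lower and 0 higher, while 34.7% of all promoter regions were lower by this rule and 10.2% were higher. Among the 6975 promoter regions with a mean signal in the same range as these 10, 41.7% were lower and 8.29% higher. None of the 10 passed the fold change limit, and all 10 of the 95% intervals lay inside it, between -0.56 and 0.19.

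**Figure D1:**
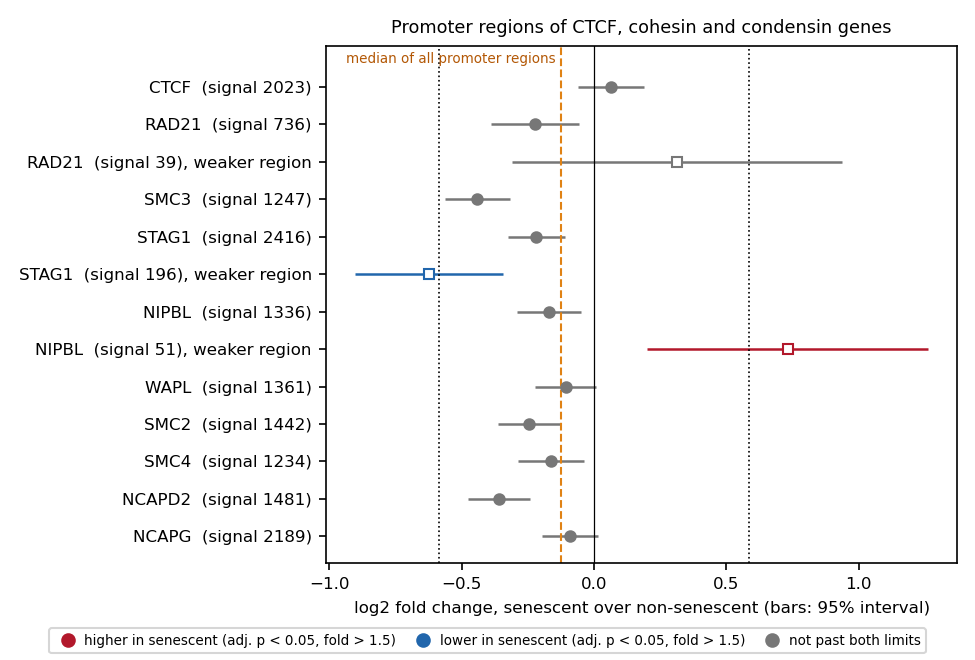
Log2 fold change of accessibility (senescent over non-senescent) at the 13 promoter regions, with bars for the 95% interval. Filled circles are the region of highest mean signal of each gene, open squares are weaker regions, dotted lines mark a fold change of 1.5, and the dashed line marks the median of all promoter regions (-0.13). SMC3 and NCAPD2 lie farthest to the left among the filled circles, and CTCF alone among them lies to the right of 0.

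The promoter of CTCF (chr16:67561633-67563824) was among the strongest of the set, with a mean signal of 2023. Its log2 fold change in the table of the authors was 0.06 (SE 0.063, adjusted p = 0.433), with a 95% interval from -0.06 to 0.19. An increase or decrease of 1.5-fold thus lay outside the interval. Of the promoter regions of like signal, 83.3% had a lower value. The midpoint of the region lay in intron 1.

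Among the cohesin subunits, SMC3, which forms one arm of the ring, had the largest change when the region of highest signal of each gene is compared. Its region (chr10:110567066-110568551, mean signal 1247) had a change of -0.44 on the log2 scale (SE 0.063, adjusted p = 4.1e-11 by the authors' model), which is 73.6% of the non-senescent level. It lay at percentile 4.37 of the promoter regions of like signal. RAD21, the subunit that closes the ring and is cleaved by separase in mitosis, had a value of -0.22 (SE 0.085, adjusted p = 0.0221, mean signal 736, chr8:116874120-116875245). A second and weaker region, in intron 1 of RAD21, had a mean signal of 38.6 and a change of 0.31 on the log2 scale (SE 0.32, adjusted p = 0.445), so its direction was not resolved. STAG1, one of the alternative subunits that bind the ring, had the highest mean signal of the set (2416, chr3:136752006-136753372) and a change of -0.22 on the log2 scale (SE 0.055, adjusted p = 3.4e-04). A second region in its intron 1, 0.79 kb past the start site (chr3:136751426-136751748, mean signal 196), was the 1 promoter region called lower, with -0.62 (SE 0.14, adjusted p = 7.6e-05). Of all promoter regions, 9.04% were called lower and 3.56% higher.

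The main promoter of NIPBL (chr5:36875146-36877646, mean signal 1336) had a change of -0.17 on the log2 scale (SE 0.061, adjusted p = 0.0154 in the authors' comparison). The promoter of WAPL (chr10:86521014-86522505, mean signal 1361) had -0.11 (SE 0.059, adjusted p = 0.134), with an interval from -0.22 to 0.01. The 1 promoter region called higher was a weak one at an internal start site of NIPBL, in intron 43 and 181 kb from the main start site (chr5:37057908-37058257). Its mean signal was 50.9 and its log2 fold change was 0.73 (SE 0.27, adjusted p = 0.0194).

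Of the condensin promoters, 3 of 4 were lower at an adjusted p under 0.05 with no fold change limit. The same rule called 34.7% of all promoter regions lower, and 41.7% of those with a mean signal in the range of the main promoters. A count from 4 promoters is too small to set apart from these shares, and the difference was not tested. NCAPD2, a large HEAT-repeat subunit of condensin I, had a change of -0.36 on the log2 scale (SE 0.060, adjusted p = 2.0e-08, mean signal 1481, chr12:6492950-6494524), or 77.9% of the non-senescent level. This region was also the promoter of MRPL51, whose start site was the nearest to its midpoint, so the value cannot be assigned to either gene. SMC2 had -0.24 (SE 0.061, adjusted p = 3.1e-04, mean signal 1442, chr9:104093629-104094851). SMC4 had -0.16 (SE 0.063, adjusted p = 0.0267, mean signal 1234, chr3:160398916-160401089) in a region shared with IFT80. NCAPG, another HEAT-repeat subunit of condensin I, had -0.09 (SE 0.054, adjusted p = 0.163, mean signal 2189, chr4:17810269-17811427), and its region was shared with DCAF16. The CHR letters were thus in the windows of SMC3, NCAPD2, SMC2 and SMC4, whose main promoters were lower with no fold change limit. They were also in those of CTCF and NCAPG, which did not pass the test. The windows of STAG1 and NIPBL, whose main promoters were lower by the same rule, and of WAPL, which did not pass it, held none. A link between the letters and the changes was not tested.

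Per kb of region, mean signal was highest at NCAPG (1888) and STAG1 (1768). SMC2 followed at 1179, and NCAPD2 (940), CTCF (923), WAPL (912) and SMC3 (839) lay close together. RAD21 (654), SMC4 (568) and NIPBL (534) were lowest, and the median over all promoter regions was 507. Without values per library, no test of the differences between these levels could be made.

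**Figure D2:**
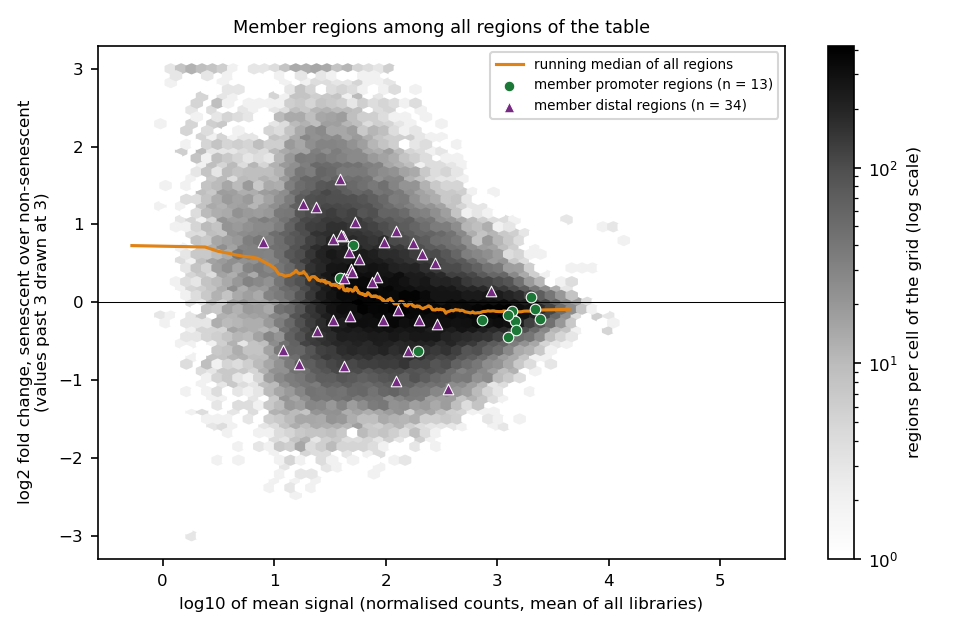
Log2 fold change (senescent over non-senescent) against log10 of the mean signal for all 108542 regions (grey grid cells, darker for more regions), with the running median of all regions as a line. The promoter regions of the 10 genes (circles) sit mostly at high signal, where the median is below 0, and their distal regions (triangles) mostly at low signal, where it is above 0.

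Fold changes in the table depended on signal, as the plot against mean signal shows, and also on base composition, which is not plotted. Promoter regions are strong and rich in G and C (median GC content 62.2%, with 55.4 to 69.9% in the 10 main promoters), and the running median of the fold change was below 0 for such regions. When the running median at like signal was taken away from every region and the p-values were computed again, SMC3 (log2 fold change -0.33, adjusted p = 1.8e-06) and NCAPD2 (-0.24, adjusted p = 3.1e-04) were still lower. CTCF was then higher at 0.18 (adjusted p = 0.017). RAD21, STAG1, NIPBL, SMC2 and SMC4 no longer passed the test. WAPL and NCAPG turned to 0.02 each (adjusted p = 0.858 and 0.839). With the running median at like GC content taken away, SMC2 was also still lower (-0.14, adjusted p = 0.047), and CTCF was again higher at 0.18 (adjusted p = 0.0114). SMC3 and NCAPD2 were thus lower in the table and under both corrections, and SMC2 in the table and under the second. CTCF did not pass the test in the table and was higher under both corrections. The part of signal and base composition in the other values was not tested.

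Distal regions differed from the promoters. In the authors' deposited table, 11 of the 34 distal regions were called higher and 4 lower, while 19 were not called. Of all 55158 distal regions assigned in this way, 17.4% were called higher and 10.9% lower. Their log2 fold changes were positive in 21 of 34 regions with a median of 0.36, against 0.03 over all distal regions. With no fold change limit 12 were higher and 4 lower at an adjusted p under 0.05, and over all distal regions 23% were higher and 19.7% lower. The regions were weak, with a median mean signal of 51.1, and they were spread over 8 genes, since CTCF and NCAPD2 had none. Regions called higher lay at 6 genes and regions called lower at 3. Distal regions of low signal had positive values in general. Of the 17 regions whose mean signal reached 50, 5 were called higher, and of the 17 below it 6 were. The matching shares of all distal regions at these levels were not computed, and the part of signal in these calls was not tested.

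**Figure D3:**
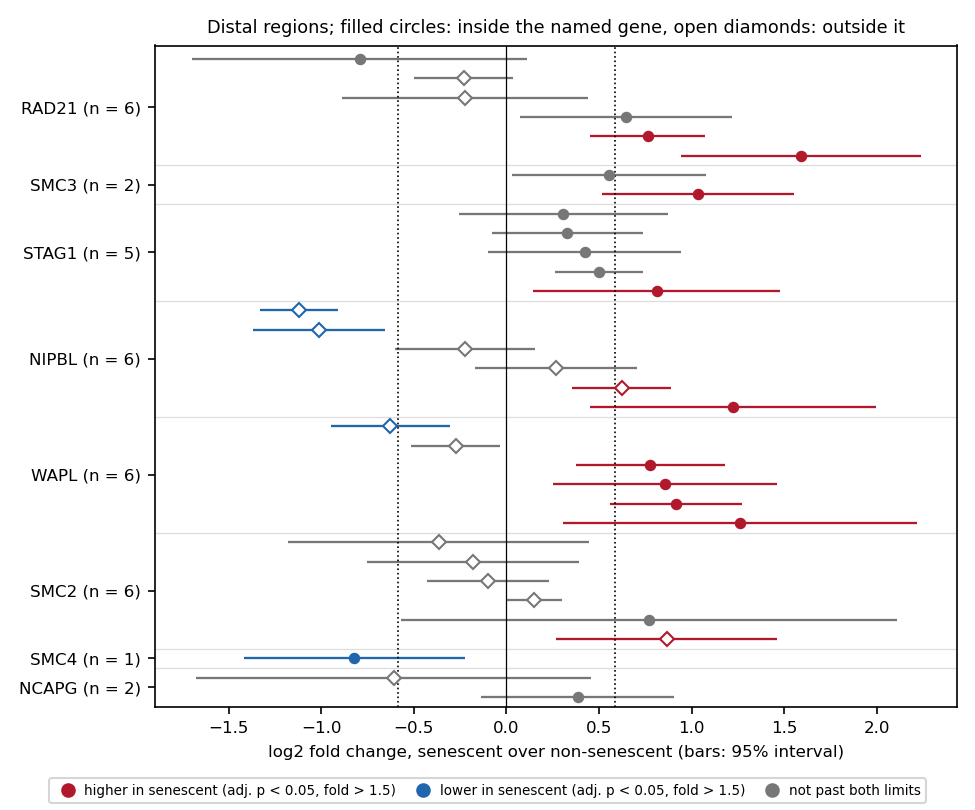
Log2 fold change (senescent over non-senescent) of the 34 distal regions, grouped by gene and sorted within it, with bars for the 95% interval and dotted lines at a fold change of 1.5. Filled circles lie inside the named gene and open diamonds outside it. Called regions inside the genes are on the right except at SMC4, and most open diamonds are near or left of 0.

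The distal regions inside the genes and those outside them moved differently. Of the 19 regions inside the gene they were assigned to, 17 had positive values, 9 were called higher and 1 was called lower, with a median of 0.76. Of the 15 regions outside, 4 had positive values, 2 were called higher and 3 were called lower, with a median of -0.22. Over all genes the same split gave a far smaller difference, with 19.2% called higher inside and 15.8% outside, 11.1% and 10.8% called lower, 54.1% and 50.2% positive, and medians of 0.06 and 0.00. The inner regions were also weaker (median mean signal 47.3 against 123) and lower in GC content (40.0% against 45.4%). Over all genes the inner and outer regions were closer in signal (83.3 against 93.2) and in GC content (45.9% against 48.0%). The 2 splits are therefore not alike in signal. This split was made after the values were seen, several of the regions share a gene, and the difference was not tested.

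At the cohesin subunits the called distal regions were all higher and all intronic. RAD21 had 6 distal regions, of which 2 were called higher. The one in intron 1 (chr8:116867075-116867447) had the largest distal increase of the set, with a change of 1.59 on the log2 scale (SE 0.33, adjusted p = 1.1e-05 in the deposited model, mean signal 38.7). The one in intron 2 (chr8:116864875-116865696) had 0.76 (SE 0.16, adjusted p = 1.0e-05, mean signal 175). Another region of intron 2 had 0.64 (SE 0.29, adjusted p = 0.061). The remaining 3 RAD21 regions had negative values that did not pass the test. The strongest of these, intergenic and 29.9 kb past the start site (chr8:116844008-116844614, mean signal 197), had -0.23 (SE 0.14, adjusted p = 0.165). SMC3 had 2 distal regions, both intronic. The one in intron 2, 2.23 kb past the start site (chr10:110569829-110570016), had 1.03 (SE 0.26, adjusted p = 4.4e-04), in contrast with the fall at the SMC3 promoter beside it. The one in intron 3 had 0.55 (SE 0.27, adjusted p = 0.080).

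STAG1, a gene with a long first intron, had 5 distal regions, all inside the gene and all with positive values from 0.31 to 0.81. The 1 called higher lay in intron 1 (chr3:136730679-136730948, 0.81, SE 0.34, adjusted p = 0.041, mean signal 33.4). A stronger region of intron 1, 92.9 kb from the start site (chr3:136659075-136659812, mean signal 274), had 0.50 (SE 0.12, adjusted p = 1.8e-04 in the table of the authors) and passed the test but not the fold change limit. The values for introns 1, 19 and 22 that remained were between 0.31 and 0.42 and did not pass the test.

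**Figure D4:**
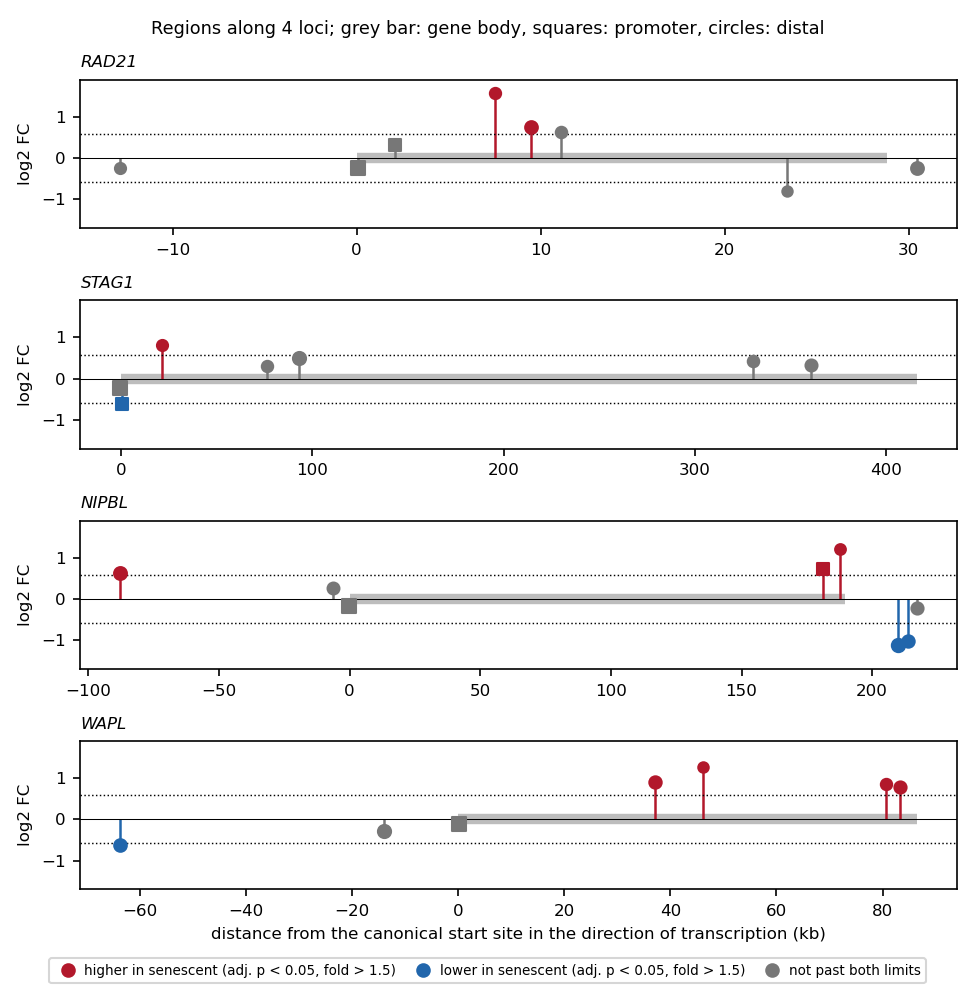
Log2 fold change (senescent over non-senescent) of each region of RAD21, STAG1, NIPBL and WAPL against its distance in kb from the main start site, in the direction of transcription. Grey bars mark the gene, squares are promoter regions, circles are distal regions with a size that grows with the mean signal, and dotted lines mark a fold change of 1.5. The regions called higher stand mostly over the grey bars, and the pair called lower at NIPBL stands past its 3′ end.

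NIPBL had the largest decreases of the set, in intergenic chromatin past the 3′ end of the gene. The region at chr5:37086478-37087142 had a change of -1.12 on the log2 scale (SE 0.11, adjusted p = 5.8e-24 by the authors' model, mean signal 358), or 46.0% of the non-senescent level. Its neighbour at chr5:37090397-37090853 had -1.01 (SE 0.18, adjusted p = 2.8e-07, mean signal 123). They lay 27.9 and 31.7 kb from the internal start site of NIPBL that made them its distal regions, and 210 and 214 kb from the main start site. With the start sites of canonical transcripts alone, or with those of noncoding genes added, they were not assigned to NIPBL. NIPBL also had 2 distal regions called higher, one intergenic and 87.8 kb upstream (chr5:36788460-36789486, 0.62, SE 0.14, adjusted p = 3.1e-05, mean signal 213) and one over coding exon 47 (chr5:37064567-37064753, 1.22, SE 0.39, adjusted p = 0.0063, mean signal 23.9).

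Letters of a forkhead site, TGTTTAC on either strand, were found in the middle 300 bases of both regions called lower past the 3′ end of NIPBL. They were in 5 of the 34 distal regions of the set, 3 of them not called. One of these 3 was a further NIPBL region past the 3′ end (chr5:37093863-37094158, log2 fold change -0.22, SE 0.19, adjusted p = 0.363 in the authors' model). Of all distal regions 9.26% held the letters, and of all distal regions called lower 11.5% did. Forkhead proteins such as FOXA2 bind such letters at beta cell enhancers, and these matches do not show that any is bound here. Windows of 100 bases around the matches are printed for these regions because they hold the strongest decreases, from hg38 on the + strand with the forkhead letters in capitals.
NIPBL, chr5:37086660-37086759: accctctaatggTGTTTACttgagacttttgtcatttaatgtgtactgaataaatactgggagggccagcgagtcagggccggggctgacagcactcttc
NIPBL, chr5:37090586-37090685: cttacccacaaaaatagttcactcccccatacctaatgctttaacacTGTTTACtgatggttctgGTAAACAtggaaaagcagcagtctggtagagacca

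WAPL had the most regions called higher, 4 of 6, all of them intronic. Those in intron 4 were 46.2 and 37.0 kb past the main start site. The first (chr10:86475491-86475659) had a change of 1.26 on the log2 scale (SE 0.49, adjusted p = 0.026, mean signal 18.0), and the second (chr10:86484546-86485043) had 0.92 (SE 0.18, adjusted p = 3.6e-06, mean signal 123). Those in intron 17 had 0.78 (SE 0.20, adjusted p = 6.7e-04, chr10:86438201-86438730) and 0.86 (SE 0.31, adjusted p = 0.0157, chr10:86440961-86441417) in the authors' comparison. Upstream of the WAPL gene both values were negative. A region 63.8 kb upstream (chr10:86585101-86585994, mean signal 158) was called lower with -0.63 (SE 0.16, adjusted p = 5.9e-04). The region 14.0 kb upstream had -0.27 (SE 0.12, adjusted p = 0.059) and did not pass the test. The call 63.8 kb upstream was lost with the trend on signal, on GC content or on both removed. Removing the signal trend also lost the calls at chr10:86475491-86475659 and chr10:86440961-86441417 inside the gene. The WAPL locus thus held increases in the gene beside a promoter that did not pass the test.

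Of the condensin genes, SMC2 had 6 distal regions, of which 1 was called higher, an intergenic region 61.6 kb upstream (chr9:104032543-104032831, 0.87, SE 0.30, adjusted p = 0.0134, mean signal 39.7). The strongest distal region of the whole set was also at SMC2, 2.71 kb upstream in intron 1 of SMC2-DT, the divergent noncoding gene (chr9:104091005-104092094, mean signal 886). Its log2 fold change was 0.15 (SE 0.078, adjusted p = 0.114), with an interval from 0.00 to 0.30, beside the SMC2 promoter at -0.24. The single distal region of SMC4, in intron 5 (chr3:160407303-160407683, mean signal 42.5), was called lower with -0.82 (SE 0.30, adjusted p = 0.0197). NCAPG had 2 that did not pass the test, one over coding exon 6 with 0.38 (SE 0.27) and one in intron 7 of LCORL with -0.61 (SE 0.54).

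Of the other letters searched, the CHR letters were in 11 of the 34 distal regions and in 20.5% of all distal regions, and CCAAT was in 8 of the 34 and in 29.5%. The AP-1 letters TGANTCA were in 2 of the 34 distal regions and in 11.3% of all distal regions, and none of the 9 promoters held them. The CTCF consensus was in 1 distal region, in intron 11 of RAD21, and in 4.12% of all distal regions. The gene of CTCF itself had no distal region by the rule used here, since RIPOR1 has the nearer start site. With canonical start sites alone, a choice made after the data were seen, 2 regions upstream of CTCF were assigned to it and both were called lower in the deposited model. Their log2 fold changes were -1.08 (SE 0.20, adjusted p = 3.2e-07, chr16:67552205-67552814) and -0.64 (SE 0.17, adjusted p = 0.0010, chr16:67546858-67547411), beside a CTCF promoter at 0.06.

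Other genes of the same pathways were read from 5 lists. Of their 35 genes 34 had a promoter region, and CTCFL, the germline relative of CTCF, had none. By the region of highest signal, 3 of the 34 were called lower and 0 higher, beside 9.04% and 3.56% of all promoter regions, so the count called was near the background. With no fold change limit, 20 were lower and 2 higher at an adjusted p under 0.05, beside 34.7% lower and 10.2% higher of all promoter regions, and the median was -0.21. The same shares stand beside the counts of the single lists given next. The list values are the strongest region of each gene, with a median mean signal of 785 against 506 over all promoter regions. The shares are therefore not at like signal. Of those called lower, ESPL1, the separase that cleaves RAD21, had a change of -1.01 on the log2 scale (SE 0.13, adjusted p = 5.8e-14 in the table of the authors), NCAPH, the closing subunit of condensin I, had -0.66 (SE 0.082, adjusted p = 2.3e-14), and NCAPH2, its counterpart in condensin II, had -0.85 (SE 0.077, adjusted p = 2.3e-26) in a region shared with LMF2. In the condensin list of 4 genes the median was -0.51, and NCAPG2 had -0.36 (SE 0.063, adjusted p = 1.4e-07), while NCAPD3, in a region shared with VPS26B, had -0.07 (SE 0.068, adjusted p = 0.399).

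Among the 11 cohesin regulators 8 were lower with no fold change limit, and the median was -0.27. SGO2, a shugoshin that protects centromeric cohesin, had -0.50 (SE 0.065, adjusted p = 4.0e-13), and HASPIN, a kinase of mitotic histone H3, had -0.50 (SE 0.094, adjusted p = 7.7e-07). PDS5A (0.02, SE 0.075, adjusted p = 0.832) and PDS5B (0.17, SE 0.082, adjusted p = 0.081), which work with WAPL on cohesin, did not pass the test. ESCO2 and SGO2 each also had a weaker promoter region called higher, with 1.06 and 0.73. In the list of 7 cohesin core and loader genes 3 were lower. These were SMC1A, the partner of SMC3 in the ring, with -0.24 (SE 0.065, adjusted p = 8.1e-04) in a region shared with RIBC1, MAU2, the partner of NIPBL, with -0.21 (SE 0.064, adjusted p = 0.0031) in a region shared with SUGP1, and SMC1B, a meiotic subunit, with -0.53 (SE 0.097, adjusted p = 4.7e-07) in a region shared with RIBC2. STAG2, the counterpart of STAG1, had 0.15 (SE 0.087, adjusted p = 0.166). In the list of SMC5/6, a related complex of DNA repair, 4 of 7 were lower, among them NSMCE2 (-0.56, SE 0.089, adjusted p = 3.2e-09, a region shared with WASHC5) and SMC6 (-0.50, SE 0.065, adjusted p = 2.8e-13, shared with GEN1). NSMCE3 was higher with 0.35 (SE 0.076, adjusted p = 3.1e-05). Of the 5 CTCF-related genes with a promoter region, MAZ (-0.40, SE 0.080, adjusted p = 6.5e-06) and ZNF143 (-0.13, SE 0.051, adjusted p = 0.029) were lower, and YY1, a factor of enhancer loops, was higher with 0.24 (SE 0.081, adjusted p = 0.0105). LDB1, another looping factor, had 0.17 (SE 0.087, adjusted p = 0.109).

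**Figure D5:**
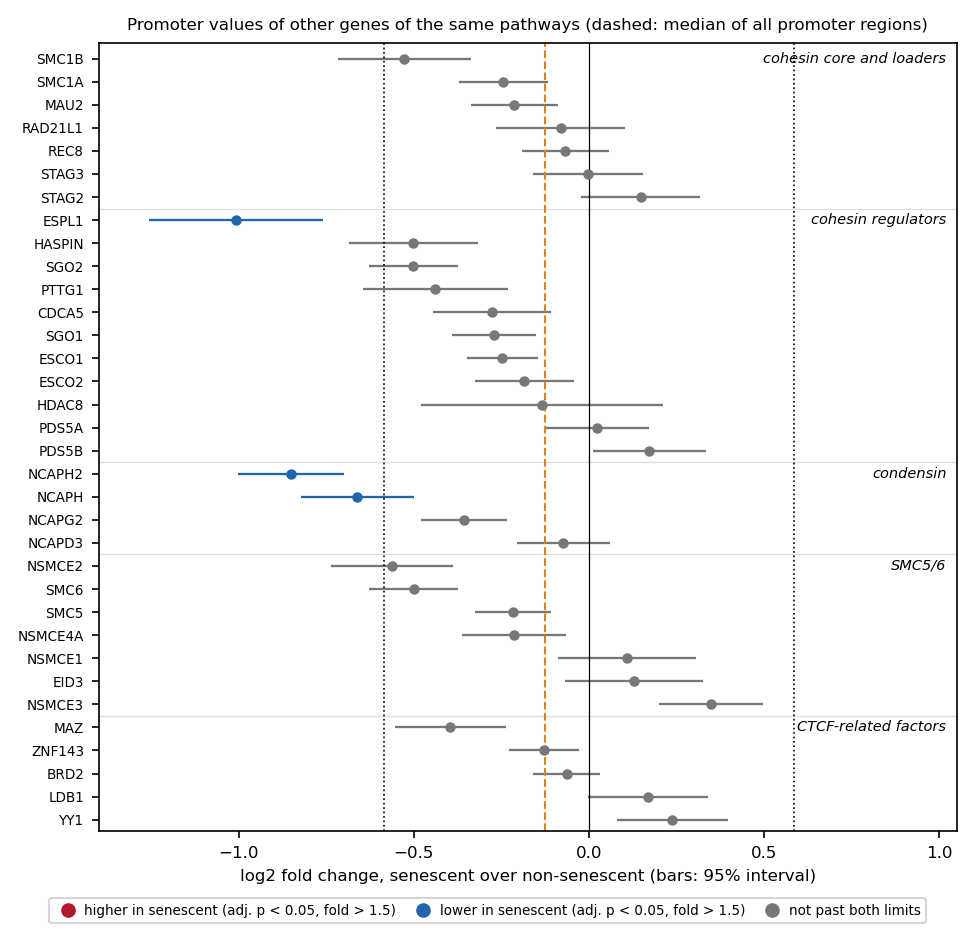
Log2 fold change (senescent over non-senescent) at the promoter region of highest signal of 34 other genes in 5 lists, sorted within each list, with bars for the 95% interval. Dotted lines mark a fold change of 1.5 and the dashed line the median of all promoter regions (-0.13). ESPL1, NCAPH2 and NCAPH are the 3 past the fold change limit.

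The labelled cell type was checked against marker promoters. The beta cell gene INS had a wide promoter region, shared with IGF2 and INS-IGF2, with a mean signal of 7894 (chr11:2153680-2159212). Per kb its signal was 1427, near the 1298 of the exocrine gene CPA1. Over 10 beta cell genes the median mean signal was 1093 and the lowest, at IAPP, was 183. Over 5 genes of other endocrine cells the mean signal ran from 53.4 to 478. The alpha cell gene GCG had 66.3, and PRSS1, PDGFRB and PTPRC, of acinar, stromal and blood cells, had no promoter region. COL1A1 and PECAM1, of mesenchymal and endothelial cells, did have promoter regions, with a mean signal of 142 and 117. The exocrine genes CPA1 and KRT19 had 2101 and 1059. Markers of other cell types also moved. SST (-1.08, SE 0.16, adjusted p = 3.9e-10), a delta cell gene, HHEX (-0.87, SE 0.092, adjusted p = 1.4e-19) and the duct gene SOX9 (-0.59, SE 0.17, adjusted p = 0.0015) were called lower. KRT19 (-0.37, SE 0.082, adjusted p = 3.8e-05) and CPA1 (-0.19, SE 0.061, adjusted p = 0.0048) were lower with no fold change limit. The part of other cell types in the promoter values was not tested. Of 10 beta cell genes, INS (log2 fold change 1.11) and IAPP (0.63) were called higher by the authors' model and 0 were called lower. Over all promoter regions these shares were 3.56% and 9.04%. With no fold change limit 4 of the 10 were higher and 1 lower, ABCC8 (-0.47, SE 0.088, adjusted p = 1.0e-06). By this rule 10.2% of all promoter regions were higher and 34.7% lower. PDX1, NKX6-1, NKX2-2, PAX6 and G6PC2 did not pass the test, and the median of the 10 was 0.02. Of 3 proliferation genes MKI67 and TOP2A were lower with no fold change limit and CCNB1 (-0.03) was not. A change in the share of cells and a change within each cell cannot be told apart in these bulk libraries. The part of fewer dividing cells in the values of the mitotic genes was not tested.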

How the data were processed

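Groups were taken from the labels of the 3 senescent and 3 non-senescent ATAC-seq libraries. According to the methods, the authors used Trim Galore for trimming and Bowtie2 for alignment to hg38. The authors dropped mitochondrial reads and duplicates, corrected for the Tn5 offset, called peaks with MACS2, used bedtools to count reads in the merged peaks and compared the groups with DESeq2. Versions are not given in the sources used here. The mean signal in the deposited table is the average over all libraries of counts divided by size factors. The log2 fold change and its SE are those of the authors' model, the score in the deposited table is their Wald statistic, and the p-value and adjusted p-value are also the authors'.

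It was checked that the score equals the fold change over its SE and that the adjusted p-value is the Benjamini-Hochberg value over all 108542 regions. The table has 0 columns for a single library, so depth per library, a new count test and values per replicate could not be given, and precision is the SE. Intervals are 1.96 SE on either side. Starts were taken as 0-based and are printed 1-based. Start sites and exons were from GENCODE 44, and RefSeq promoters were matched by symbol. Python 3.11.15, pandas 2.3.3 and SciPy 1.17.1 were used, and the calls and trend removal were tested on simulated data. Named were the 10 genes with their strongest promoter region, their called regions and strongest distal region, and in each pathway list the called genes and up to 3 with the largest change. Other genes and regions were named after their values were seen. The genes, lists and motifs were chosen with earlier results of these data known. The running median used 1000 regions on each side. The alternatives were another threshold, a test against a fold of 1.5, removal of the trends on signal and GC content, a signal minimum of 50, promoter windows of 1 and 0.5 kb, a distal limit of 50 kb and other sets of start sites.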

Additional observations from a re-analysis of the deposited data

How the results depend on the processing

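No paired analysis was possible because the deposited table has no values per library. For the same reason leaving out a replicate, the replicate block, other normalizations and other count filters were not run. A Wald test against a 1.5-fold change kept 2 of the 17 called regions, the RAD21 region of intron 1 (adjusted p = 0.042) and the stronger NIPBL region past the 3′ end (adjusted p = 3.1e-05). It thus left 1 distal region higher (main count 11), 1 distal region lower (main count 4) and 0 promoter regions in either direction (main count 1 each). The promoter region called higher was lost (0) under an adjusted p under 0.01, with the trends on signal, on GC content or on both removed, with a window of 0.5 kb and with canonical start sites. The promoter region called lower was lost (0) under the 3 trend corrections and the 0.5 kb window, and with no fold change limit 8 were lower. Distal regions called higher numbered 7 at an adjusted p under 0.01, 5 at a signal of at least 50, 7 with the signal trend removed and 6 with start sites of all genes, 4 of those 6 being among the main 11. With start sites of all genes 0 distal regions were lower, and with canonical start sites 4 were, 2 of them among the main 4. Both trends together and canonical start sites were chosen after seeing the data.

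The median of the promoter values moved from -0.19 to -0.0769 with the signal trend removed and to -0.0554 with the GC trend removed. WAPL turned from -0.11 to 0.0162 and 0.0293 and NCAPG from -0.09 to 0.0166 and 0.0564 under these corrections, where neither passed the test at the start or after. CTCF moved from 0.0642 to 0.175 and 0.184, and passed the recomputed Wald test only after correction (adjusted p = 0.0171 and 0.0114). Of 54 comparisons of the main counts and medians with an alternative, 32 stayed within the limits of 1.5 times or 1 spread, and 22 moved. No called region changed direction under any alternative run on the region values.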
